A study of Mus musculus with 12 samples.

Results

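The BCL2 family of apoptosis regulators was examined in RNA-seq of mouse colonic crypts, through 10 genes taken by symbol from the 55471 genes listed: the effectors Bax and Bak1, the BH3-only genes Bbc3, Pmaip1, Bid, Bad and Bcl2l11, and the survival genes Bcl2, Bcl2l1 and Mcl1. The series compared CBPWT and CBPAA mice, in which serines of the coactivator CBP are replaced with alanines by knock-in, with and without p53 in the intestinal epithelium. Each of the 4 groups, CBPWTp53-floxed, CBPAAp53-floxed, CBPWTp53ΔIEC and CBPAAp53ΔIEC, was represented by 3 libraries, labelled as biological replicates. All mice were on the C57BL/6J background and, by the study's methods, were 8-week-old females carrying floxed p53 alleles. In p53ΔIEC mice a Villin-driven Cre removes p53 from intestinal epithelial cells only, so that any other cell in a crypt preparation keeps the gene, and floxed mice without Cre served as controls. The crypts were released with EDTA, and each library held between 11177430 and 18029125 reads counted on genes.

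Members of the BCL2 family decide whether the outer mitochondrial membrane is opened and cytochrome c is set free. The effectors BAX and BAK form the pores, survival proteins such as BCL2, BCL-XL (Bcl2l1) and MCL1 hold them back, and BH3-only proteins respond to stress by binding the survival proteins or by activating the effectors. In the intestinal crypt, p53 drives apoptosis after DNA damage largely through PUMA (Bbc3), and Bax, Bbc3 and Pmaip1 (NOXA) are textbook p53 targets.

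Crypts that had lost p53 showed no member called different in the fit over all 12 libraries, although p53 itself and several of its other targets fell. In a fit that left out 4 libraries with small-intestinal RNA, 2 of 10 members, Pmaip1 and Bcl2l11, were called lower, against 11.1% of all genes tested that were called. Trp53 stood at 27.9 ± 2.94 TPM (SD, n = 3) in CBPWTp53-floxed and 29.2 ± 5.28 TPM (SD, n = 3) in CBPAAp53-floxed crypts, against 4.29 ± 1.10 TPM and 5.28 ± 0.763 TPM (SD, n = 3 each) in the CBPWTp53ΔIEC and CBPAAp53ΔIEC crypts. TPM is the level scaled to gene length and library size. The log2 fold change of Trp53 was -2.61 (SE 0.157, adjusted p = 5.6e-06 from edgeR), averaged over CBP genotypes, and the lowest floxed library lay above the highest deleted one. Crebbp, the gene for CBP, had 9.54 ± 1.73, 8.02 ± 1.48, 7.76 ± 1.86 and 9.31 ± 0.915 TPM (SD, n = 3 each) in the same order of groups; a codon change is not read by its level.

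The preparations held epithelial RNA, but 4 of the 12 libraries also held RNA of small-intestinal and Paneth cell genes. Keratin 8 (Krt8) was the most abundant epithelial marker with a mean of 5219 TPM, and the summed TPM of 10 epithelial markers lay between 16940 and 24280. The colonic marker Car1 had a mean of 12540 TPM. Stromal RNA was scarce: 10 of 13 stromal markers, Col1a1 and Dcn among them, had at most 10 reads in every library. The same held for 5 of 8 endothelial markers, Cdh5 among them, and for 6 of 20 leukocyte markers. The summed TPM of the leukocyte list lay between 14.6 and 38.6.

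The summed TPM of 11 small-intestine genes was 757 in CBPAAp53-floxed replicate 2, 3606 in CBPWTp53ΔIEC replicate 1, 642 in CBPAAp53ΔIEC replicate 1 and 1529 in CBPAAp53ΔIEC replicate 3, and between 28.6 and 47.7 in the other 8 libraries. Apoa1 was the most abundant of these genes, and Lct had at most 10 reads in every library. The 7 Paneth cell genes, led by Defa24, summed to between 1048 and 18630 TPM in those 4 libraries and to between 19.2 and 257 TPM in the others. Of the 4 libraries, 3 were p53ΔIEC and 1 was p53-floxed, so the averaged results on p53 deletion are given with and without them. Leaving them out was chosen after the data were seen.

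Ordered by level over all 12 libraries, the family spanned from Mcl1 down to Bcl2. Mcl1, a short-lived survival protein, had 274 ± 37.5 TPM (SD, n = 12, over 4 groups) and ranked 405 among the 14610 genes tested. Bak1 followed with 130.8 ± 16.4 TPM. The ranges of these 2 genes did not overlap, nor did those of Bak1 and the third, Bad, a BH3-only gene whose protein is switched off by phosphorylation and which had 32.3 ± 3.21 TPM (SD, n = 12). From Bad on, each gene's range overlapped that of the next in order.

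Bcl2l1 had 27.9 ± 2.71 TPM, Bax 19.7 ± 3.19 TPM and Pmaip1 17.2 ± 3.93 TPM (SD, n = 12 each). Bax exceeded Pmaip1 in 8 of 12 libraries, so that pair had no fixed order. Bid, which carries the death receptor signal to mitochondria once cleaved, had 13.1 ± 1.68 TPM, and Bbc3 had 9.06 ± 1.53 TPM (SD, n = 12 each). The lowest were Bcl2l11 (BIM) with 6.14 ± 1.28 TPM and Bcl2 with 5.60 ± 1.16 TPM, and Bcl2l11 was the higher of the pair in 6 of 12 libraries. The median gene tested had a mean of 12.3 TPM, so that Bbc3, Bcl2l11 and Bcl2 lay below it.

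Among the effectors and the survival genes, a single gene supplied most of the transcript on the length-scaled TPM scale. Bak1 made up 86.9% ± 1.71 of the summed effector TPM and Mcl1 89.0% ± 1.11 of the summed survival TPM (SD, n = 12 each), whereas Bcl2 made up 1.82% ± 0.327. Bad, the most abundant BH3-only gene, made up 41.7% ± 4.00 of the summed BH3-only TPM (SD, n = 12), between 33.3% and 47.1%. The share of Bak1 was at least 82.75% and that of Mcl1 at least 87.25% in every library. In the plot of member levels the groups of most genes overlap.

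**Figure D1:**
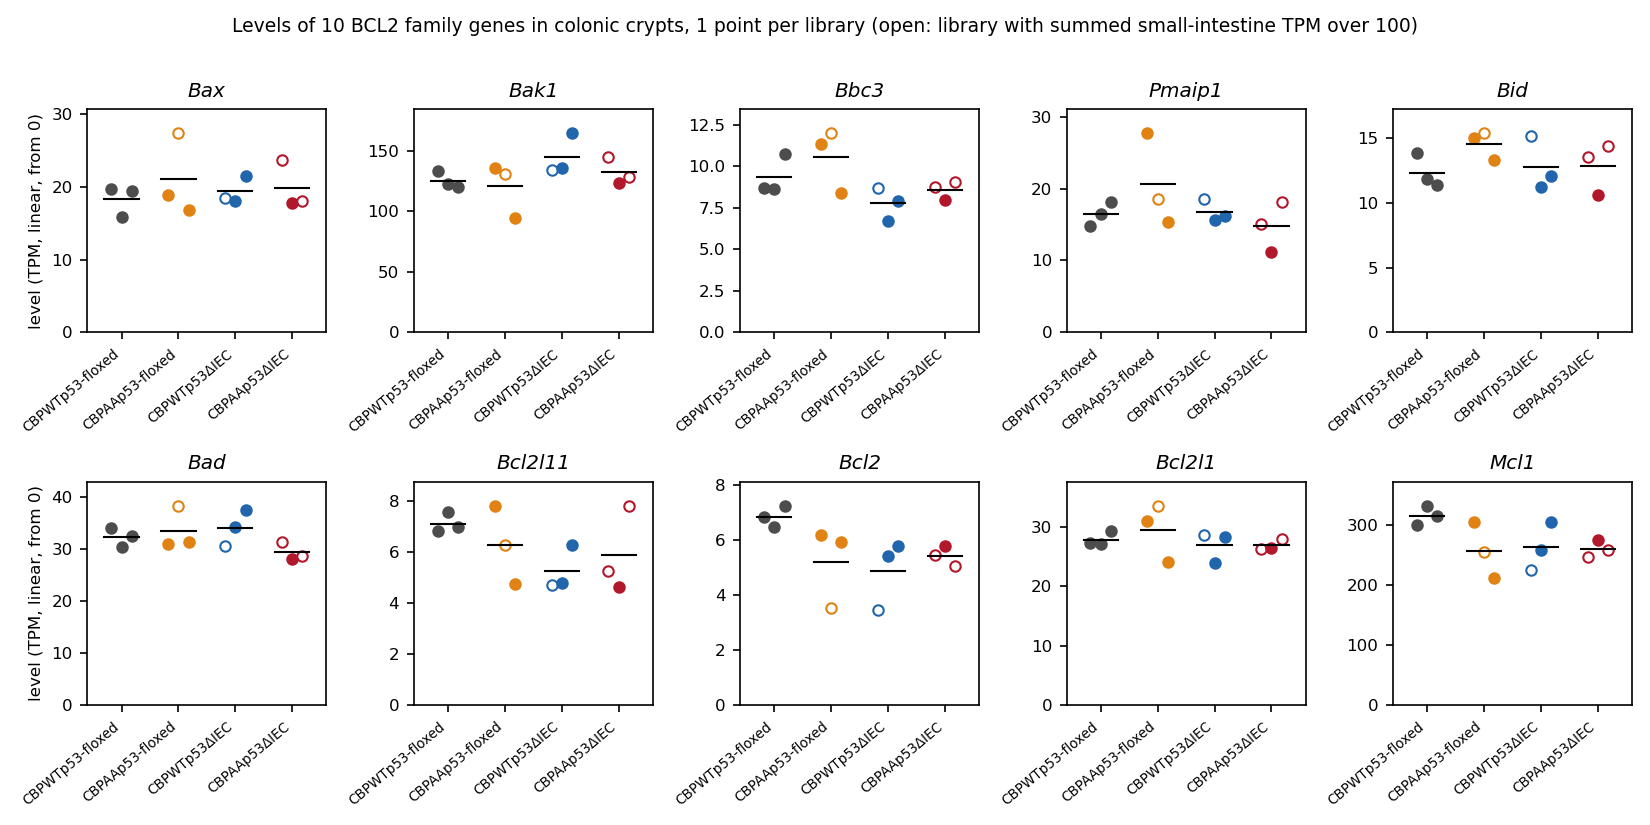
Level of each of the 10 genes in TPM (linear axis from 0) in the 4 groups, 1 point per library and 3 libraries per group, with black lines for group means and open points for the 4 libraries with a summed small-intestine TPM over 100. Bak1 and Mcl1 stand highest, Mcl1 between 212 and 332 TPM, and Bax and Bcl2 each have an open point far from the rest of the CBPAAp53-floxed group.

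Positions are those of GRCm38, the build named in the submitters' processing notes. Bax (ENSMUSG00000003873) lies at chr7:45461697-45466898, Bak1 (ENSMUSG00000057789) at chr17:27019810-27029009 and Bbc3 (ENSMUSG00000002083) at chr7:16308393-16318205. Bid (ENSMUSG00000004446) lies at chr6:120891930-120916853, Bad (ENSMUSG00000024959) at chr19:6941861-6951899 and Bcl2l11 (ENSMUSG00000027381) at chr2:128126038-128162547. Pmaip1 has the identifier ENSMUSG00000024521. Bcl2 (ENSMUSG00000057329) lies at chr1:106538178-106714274, Bcl2l1 (ENSMUSG00000007659) at chr2:152780668-152831728 and Mcl1 (ENSMUSG00000038612) at chr3:95658788-95663176. Bak1 overlaps Ggnbp1, Bid overlaps Bcl2l13 and Bad overlaps Gpr137, each on the opposite strand, and Bax overlaps Gm45808 on its own strand. Bid also overlaps the processed pseudogene Gm17812 on the opposite strand and Gm44260 on its own. Bcl2 overlaps D630008O14Rik on the opposite strand and Mir3473f and Gm37053 on its own. Whether reads were counted by strand is not given in the sources used here, so the counts of these 5 members may hold reads of their neighbours.

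Because p53 binds DNA at pairs of a half-site of 10 bases, RefSeq promoter windows of GRCm38.p6, from 250 bases before to 50 bases after the start of a transcript, were searched for the p53 half-site consensus. The consensus is its own reverse complement, so that a single search covers both strands. A half-site was present in 8.36% of 32851 windows. Among 15 windows of 9 members only that of Bax held one, 201 bases before the start. Of 3 windows of Bmf, a BH3-only gene that was called lower without p53 (below), 1 held one at 213 bases, and that of Ccng1, a p53 target that was also called lower, held one at 185 bases. The stretches are shown with the half-site in capitals, each 5′ to 3′ on the strand of the gene, the minus strand in each case, to show the letters found at the member and at 2 called genes.
Bax, chr7:45467080-45467109: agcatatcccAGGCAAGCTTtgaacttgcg
Bmf, chr2:118544781-118544810: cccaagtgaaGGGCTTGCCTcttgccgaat
Ccng1, chr11:40755452-40755481: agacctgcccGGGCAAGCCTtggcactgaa
The windows of Eda2r, Phlda3 and Ephx1, all called lower, and that of Bnip3 held no half-site, whereas 1 of 2 windows of Cdkn1a held 2 and that of Mdm2 held 1, and neither gene was called. A match is a description of these letters and does not show binding.

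The first question was whether loss of epithelial p53 lowered the family's p53 targets. A gene was called when its adjusted p was under 0.05 and its log2 fold change was above 0.5 in size, the cutoff of the study. In CBPWT crypts edgeR called 0 of 10 members, against 3.15% of all genes tested. In CBPAA crypts it called 0 of 10, against 0.0274%, and averaged over CBP genotypes 0 of 10, against 3.5%. DESeq2 and limma on log2 TPM also called 0 members in each of these comparisons. At an unadjusted p under 0.05, 3 members passed in each: Bcl2l11, Bcl2 and Mcl1 in CBPWT crypts (30%, against 20.9% of all genes), Bbc3, Pmaip1 and Bad in CBPAA crypts (against 12.6%), and Bbc3, Bcl2l11 and Mcl1 on average (against 21.9%). The median log2 fold change of the members was 0.05 in CBPWT crypts, with 4 of 10 estimates below 0, and -0.25 in CBPAA crypts, with 9 of 10 below 0. On average it was -0.15, with 9 of 10 below 0. The median of all genes tested was 0.01 in each.

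Without the 4 libraries with small-intestinal RNA, edgeR called 2 of 10 members lower on average, Pmaip1 and Bcl2l11, against 11.1% of 15208 genes tested. In CBPAA crypts it called 1 of 10, Pmaip1, against 6.92%, and in CBPWT crypts 0 of 10, against 11.4%. In CBPWT crypts Bcl2l11 (log2 fold change -0.47, adjusted p = 0.0241 from edgeR) and Bcl2 (-0.38, adjusted p = 0.0235) passed the adjusted p and fell short of the fold cutoff. This left 3 CBPWTp53-floxed, 2 CBPAAp53-floxed, 2 CBPWTp53ΔIEC libraries and 1 CBPAAp53ΔIEC library, and the lone library is taken to vary like the others.

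Of the effectors, Bax did not separate by p53 state. Its levels were 19.7, 15.9 and 19.5 TPM in CBPWTp53-floxed, 18.9, 27.4 and 16.8 TPM in CBPAAp53-floxed, 18.5, 18.1 and 21.6 TPM in CBPWTp53ΔIEC and 23.7, 17.7 and 18.1 TPM in CBPAAp53ΔIEC crypts. All 4 groups overlapped, and the 2 highest values belonged to libraries with small-intestinal RNA. The log2 fold change on deletion, averaged over CBP genotypes, was -0.05 (95% interval -0.35 to 0.24, adjusted p = 0.858 from edgeR), and -0.07 without the 4 libraries.

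Bak1, the more abundant pore former, had the only positive average estimate. It stood at 133, 122 and 120 TPM in CBPWTp53-floxed, 136, 131.3 and 94.9 TPM in CBPAAp53-floxed, 134, 136 and 165 TPM in CBPWTp53ΔIEC and 145, 123 and 129 TPM in CBPAAp53ΔIEC crypts. In TPM every CBPWTp53ΔIEC library was above the CBPWTp53-floxed ones, by under 1 TPM for the closest pair, while the CBPAA groups overlapped. In CPM, the library-scaled count that the fit works on, the CBPWT groups overlapped too. CBPWTp53ΔIEC replicate 2 had 124 CPM and CBPWTp53-floxed replicate 1 had 126 CPM. The log2 fold change of Bak1 was 0.25 in CBPWT crypts (95% interval -0.01 to 0.50, adjusted p = 0.25 from edgeR) and 0.13 on average (-0.05 to 0.31), and the average was 0.07 without the 4 libraries.

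Among the BH3-only genes, Bbc3 had the most negative average estimate of the members over 12 libraries. It stood at 8.70, 8.63 and 10.7 TPM in CBPWTp53-floxed, 11.3, 12.0 and 8.37 TPM in CBPAAp53-floxed, 8.69, 6.68 and 7.91 TPM in CBPWTp53ΔIEC and 8.74, 7.97 and 9.03 TPM in CBPAAp53ΔIEC crypts. The deleted groups lay at the lower end and overlapped the floxed ones. The log2 fold change on average was -0.32 (SE 0.140, 95% interval -0.62 to -0.02, adjusted p = 0.202 from edgeR). It was -0.45 without the 4 libraries (adjusted p = 0.0326 from edgeR), short of the fold cutoff.

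Pmaip1 encodes NOXA, which binds MCL1 and marks it for degradation. Its levels were 14.8, 16.4 and 18.1 TPM in CBPWTp53-floxed, 27.7, 18.6 and 15.4 TPM in CBPAAp53-floxed, 18.5, 15.7 and 16.2 TPM in CBPWTp53ΔIEC and 15.2, 11.2 and 18.2 TPM in CBPAAp53ΔIEC crypts. CBPAAp53-floxed replicate 1 was the highest and CBPAAp53ΔIEC replicate 2 the lowest, and all groups overlapped in TPM. The log2 fold change was 0.09 in CBPWT crypts (95% interval -0.37 to 0.55) and -0.58 in CBPAA crypts (-1.03 to -0.12, adjusted p = 0.342 from edgeR), and -0.24 on average (adjusted p = 0.365).

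Without the 4 libraries the average for Pmaip1 was -0.60 (SE 0.129, 95% interval -0.88 to -0.33, adjusted p = 0.00314 from edgeR). It was -1.06 in CBPAA crypts (adjusted p = 0.00577), where 2 libraries were set against 1, and -0.14 in CBPWT crypts (adjusted p = 0.546). The TPM of the 5 floxed libraries left ran from 14.8 to 27.7 with a median of 16.4, and those of the 3 deleted ones were 11.2, 15.7 and 16.2, so that the ranges overlapped.

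Bcl2l11 encodes BIM, which binds every survival protein of the family. It stood at 6.82, 7.57 and 6.98 TPM in CBPWTp53-floxed, 7.83, 6.29 and 4.74 TPM in CBPAAp53-floxed, 4.69, 4.78 and 6.27 TPM in CBPWTp53ΔIEC and 5.25, 4.63 and 7.82 TPM in CBPAAp53ΔIEC crypts. The CBPWT groups did not overlap and the CBPAA groups did. The log2 fold change was -0.41 in CBPWT crypts (SE 0.189, 95% interval -0.82 to -0.00302, adjusted p = 0.236 from edgeR) and -0.31 on average (adjusted p = 0.202). Without the 4 libraries the average was -0.52 (SE 0.119, 95% interval -0.77 to -0.26, adjusted p = 0.00496 from edgeR), just past the fold cutoff, with 3 deleted libraries at 4.63, 4.78 and 6.27 TPM against 4.74 to 7.83 TPM in 5 floxed ones.

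Bid and Bad were not called. Bid ranged from 10.6 to 15.4 TPM over the 12 libraries and its average log2 fold change was -0.10 (95% interval -0.40 to 0.21). It was -0.36 without the 4 libraries (adjusted p = 0.0247 from edgeR), short of the fold cutoff. Bad ranged from 28.0 to 38.3 TPM, and its estimate was 0.12 in CBPWT crypts and -0.33 in CBPAA crypts (95% interval -0.60 to -0.07, adjusted p = 0.342 from edgeR). The average for Bad was -0.11 over 12 libraries and -0.12 over 8.

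All 3 survival genes had negative average estimates, none of them called. Bcl2 stood at 6.83, 6.49 and 7.26 TPM in CBPWTp53-floxed, 6.19, 3.52 and 5.93 TPM in CBPAAp53-floxed, 3.44, 5.44 and 5.80 TPM in CBPWTp53ΔIEC and 5.45, 5.78 and 5.05 TPM in CBPAAp53ΔIEC crypts. In TPM every CBPWTp53-floxed library lay above the other 9. In CPM that was not so: CBPAAp53-floxed replicate 3 had 25.05, above the CBPWTp53-floxed values of 24.6, 22.9 and 24.7. The 3 lowest values, 3.44, 3.52 and 5.05 TPM, all came from libraries with small-intestinal RNA. The log2 fold change was -0.47 in CBPWT crypts (SE 0.179, 95% interval -0.86 to -0.08, adjusted p = 0.157 from edgeR) and -0.07 in CBPAA crypts (-0.46 to 0.32). The average for Bcl2 was -0.27 (adjusted p = 0.231 from edgeR) and, without the 4 libraries, -0.30 (adjusted p = 0.03), short of the fold cutoff.

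In bulk crypts, fewer cells of a type and less RNA per cell cannot be told apart. The ratio of Bax to Bcl2 TPM was 2.67 ± 0.217 in CBPWTp53-floxed, 4.55 ± 2.79 in CBPAAp53-floxed, 4.14 ± 1.08 in CBPWTp53ΔIEC and 3.66 ± 0.643 in CBPAAp53ΔIEC crypts (SD, n = 3 each), with the highest single value of 7.78 in CBPAAp53-floxed replicate 2.

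Mcl1 had 299, 332 and 314 TPM in CBPWTp53-floxed, 304, 255 and 212 TPM in CBPAAp53-floxed, 225, 259 and 306 TPM in CBPWTp53ΔIEC and 246, 275 and 259 TPM in CBPAAp53ΔIEC crypts. The 3 CBPAAp53ΔIEC libraries lay below all 3 CBPWTp53-floxed ones, and the remaining groups spread across both. The average log2 fold change was -0.17 (SE 0.0704, 95% interval -0.32 to -0.02, adjusted p = 0.187 from edgeR), with between 3746 and 7440 reads per library, and -0.15 without the 4 libraries (adjusted p = 0.211). Bcl2l1 ranged from 24.0 to 33.7 TPM with an average estimate of -0.13 (95% interval -0.34 to 0.09), or -0.19 without the 4 libraries (adjusted p = 0.0623 from edgeR).

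Single libraries moved these small averages. Over the 12 fits that leave out 1 library, the average log2 fold change on deletion ran from -0.12 to 0.0636 for Bax and from 0.0804 to 0.16 for Bak1. Among the BH3-only genes it ran from -0.44 to -0.26 for Bbc3, -0.36 to -0.16 for Pmaip1, -0.24 to -0.0258 for Bid, -0.17 to -0.0603 for Bad and -0.45 to -0.23 for Bcl2l11. For the survival genes it ran from -0.39 to -0.18 for Bcl2, -0.23 to -0.0732 for Bcl2l1 and -0.20 to -0.14 for Mcl1. The end nearest to 0, or past it, came without CBPAAp53-floxed replicate 2 for Bax and Bad, and without CBPWTp53ΔIEC replicate 3 for Bid.

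**Figure D2:**
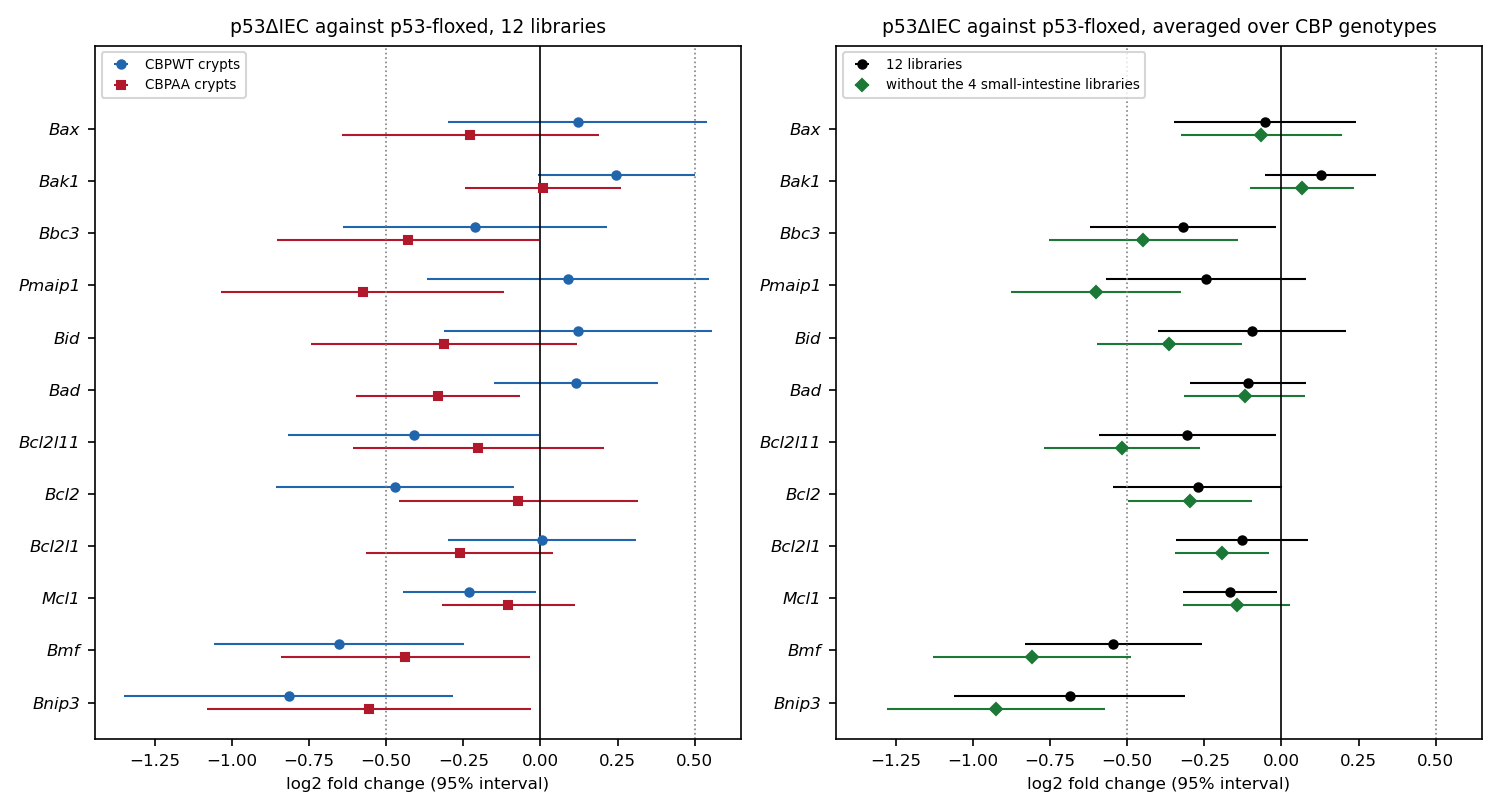
Log2 fold change with 95% interval of the 10 members, Bmf and Bnip3 for p53ΔIEC against p53-floxed crypts, in CBPWT (circles) and CBPAA (squares) crypts on the left, and averaged over CBP genotypes with all 12 libraries (circles) or without 4 of them (diamonds) on the right; dotted lines mark 0.5 in size. Most intervals reach 0 on the left, and on the right Pmaip1 shifts from -0.24 to -0.60.

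Read counts in CPM, the library-scaled count that the fit works on, overlapped between groups for most members. In CBPWT crypts 3 of 10 members (Bcl2l11, Mcl1 and Bcl2) had CPM values that did not overlap between p53 states, against 30.8% of all genes tested. In CBPAA crypts 2 of 10 (Bbc3 and Bcl2l1) did not overlap, against 15%. Both shares were close to the background.

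Of 15 further genes of the family, 10 had enough reads to be tested, and 2 of these, Bmf and Bnip3, were called lower on p53 deletion averaged over CBP genotypes, against 3.5% of all genes. Hrk had 0 reads in every library, for which a count of 0 allows up to 3 reads, and Bcl2a1a, Bcl2a1b, Bcl2a1d and Bcl2l10 had at most 3 reads in any library. Bmf, a BH3-only gene tied to detachment from the matrix, stood at 10.3, 13.9 and 12.8 TPM in CBPWTp53-floxed, 11.9, 9.43 and 9.49 TPM in CBPAAp53-floxed, 6.99, 9.25 and 6.58 TPM in CBPWTp53ΔIEC and 9.86, 6.34 and 8.64 TPM in CBPAAp53ΔIEC crypts. The p53 states did not overlap in CBPWT crypts, and in CBPAA crypts 1 deleted library reached the floxed range. Its average log2 fold change was -0.54 (SE 0.133, adjusted p = 0.034 from edgeR) and -0.81 without the 4 libraries (adjusted p = 0.00169).

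Bnip3, a mitophagy receptor with a BH3-like motif, stood at 16.7, 16.3 and 15.7 TPM in CBPWTp53-floxed, 16.8, 15.5 and 14.6 TPM in CBPAAp53-floxed, 9.72, 10.4 and 6.29 TPM in CBPWTp53ΔIEC and 9.67, 9.77 and 15.3 TPM in CBPAAp53ΔIEC crypts. A single deleted library, CBPAAp53ΔIEC replicate 3, reached the floxed range. The average log2 fold change was -0.69 (SE 0.174, adjusted p = 0.0405 from edgeR) and -0.92 without the 4 libraries (adjusted p = 0.000958). Over 12 libraries neither gene was called in a single CBP genotype, with adjusted p from edgeR of 0.0713 for Bmf and 0.0835 for Bnip3 in CBPWT crypts and 0.382 and 0.385 in CBPAA crypts. The averaged calls were also lost with the replicate number as a block (adjusted p = 0.0701 and 0.0857) and in limma on log2(TPM + 0.5) (0.121 and 0.0659). Both calls were near the threshold: with a single library left out in turn, Bmf stayed called in 4 of 12 fits and Bnip3 in 2 of 12. Bnip3 overlaps the antisense gene Gm45507.

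The remaining 8 tested genes of the family were not called. Bcl2l14 (BCL-G) had an average log2 fold change of -0.30 (adjusted p = 0.035 from edgeR), short of the fold cutoff. Bcl2l2 (BCL-w), a survival gene at 43.0 ± 5.94 TPM (SD, n = 12), was the most abundant of these after Bnip3l and Bcl2l14, and its estimate was -0.20 (adjusted p = 0.0895). Bcl2l15 followed the small-intestinal RNA: it had between 22 and 114 reads in the 4 libraries named above and between 0 and 5 reads in the other 8.

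**Figure D3:**
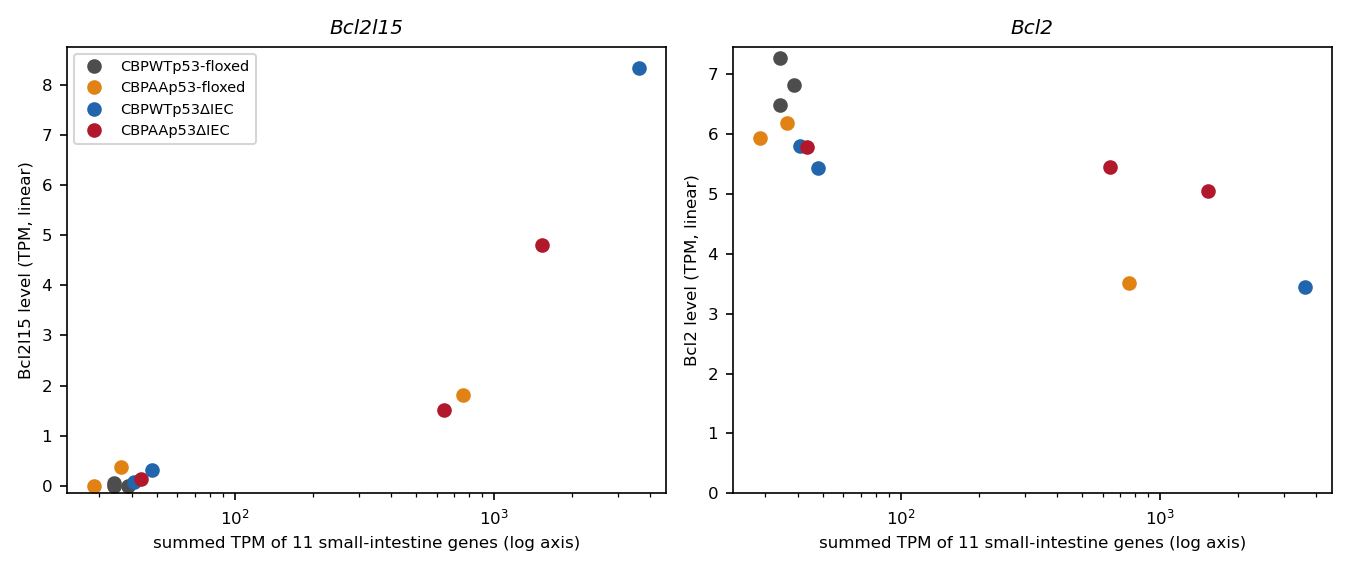
TPM of Bcl2l15 (left) and Bcl2 (right), linear axes, against the summed TPM of 11 small-intestine genes (log axis), 1 point per library coloured by group. Bcl2l15 reaches 8.33 TPM among the 4 libraries on the right and has at most 0.37 TPM in the other 8, and the 2 lowest Bcl2 values are in that group of 4.

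p53 loss was nonetheless read in other targets of p53. Of 23 comparator genes, all tested, 6 were called lower and 1 higher on average over 12 libraries, against 3.5% of all genes. The same counts were called in CBPWT crypts (against 3.15%), and 2 were called lower in CBPAA crypts (against 0.0274%). The list holds Bax, Bbc3 and Pmaip1. The largest fitted falls were those of Eda2r, a TNF receptor family gene, with a log2 fold change of -5.14 (SE 0.461), and Phlda3, an AKT repressor, with -3.80 (SE 0.52). In every p53ΔIEC library Eda2r had at most 2 reads and Phlda3 at most 3, so their exact sizes and order are not fixed. Ephx1, an epoxide hydrolase, fell by 1.86 on the log2 scale, Plk2 by 0.61, Ccng1 by 0.57 and Trp53inp1 by 0.54 (adjusted p from edgeR between 0.000125 and 0.0232 for the 6). The median of the list was -0.13. Without the 4 libraries the median of the list was -0.25 in CBPWT crypts, -0.23 in CBPAA crypts and -0.21 on average. For all genes tested in that fit the medians were -0.007, 0.003 and 0.0009. The most abundant comparators were not called: Perp had an estimate of -0.16, Cdkn1a (p21) of -0.12 and Btg2 of -0.19.

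Averaged over CBP genotypes, cell cycle genes rose on p53 deletion in the same libraries. Of 24 proliferation genes, 20 were called higher in CBPWT crypts (against 3.15% of all genes), 0 in CBPAA crypts (against 0.0274%) and 24 on average (against 3.5%). The median log2 fold changes were 1.85, 1.37 and 1.59, and every estimate was above 0. The difference between the 2 deletion effects was called for 0 of the 24 (against 0.00684% of all genes), with every estimate below 0 (median -0.50). On average Gtse1 of the p53 comparators rose by 1.74 and the survivin gene Birc5, an inhibitor of apoptosis that is also a mitotic gene, by 1.74 (adjusted p = 0.0143 from edgeR). The summed TPM of the 24 genes lay between 248 and 355 in the floxed libraries, against 422, 946 and 981 in CBPWTp53ΔIEC and 778, 753 and 294 in CBPAAp53ΔIEC crypts, where the last lay within the floxed range. When the 4 libraries were left out, the median log2 fold changes of the 24 genes were 2.055 in CBPWT crypts, 1.61 in CBPAA crypts and 1.86 on average. The part of this rise of cell cycle genes in the members' values was not tested.

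Downstream of the family, the mitochondrial apoptosis genes were called about as often as all genes for p53 deletion averaged over CBP genotypes. Birc5 was the only gene called on average among 27 tested, against 3.5% of all genes, and the median estimate was -0.01. In the fit without the 4 libraries the median estimate was -0.04 on average and -0.006 in CBPWT crypts, beside 0.0009 and -0.007 for all genes tested. Over 12 libraries 2 of 27, Birc5 and Mtch2, were called higher in CBPWT crypts, against 3.15% of all genes. Mtch2, which receives BID at the mitochondrion, had 0.56 there (adjusted p = 0.0286 from edgeR). On average it had 0.41 (adjusted p = 0.0144 from edgeR), short of the fold cutoff. The channel genes Vdac1 and Vdac2 and the cytochrome c gene Cycs, the most abundant of the list, had estimates of -0.14, -0.06 and 0.21. Of the death receptor genes 14 of 15 were tested and 0 were called on average by edgeR or DESeq2, with 4 of 14 at an unadjusted p under 0.05, against 21.9% of all genes. Without the 4 libraries the median estimate of the death receptor genes was 0.02 on average. In that fit Fas, also among the p53 comparators, was called lower in CBPWT crypts and on average, with a lone CBPAAp53ΔIEC library. Fas had 10.6, 8.62 and 8.96 TPM in the p53ΔIEC libraries left and 12.9 to 17.9 TPM in the floxed ones. Over 12 libraries Fas overlapped between p53 states and had an average estimate of -0.48 (adjusted p = 0.214 from edgeR). Over 12 libraries 1 of 14 was called in CBPWT crypts, against 3.15% of all genes: Ripk3, a kinase of necroptosis, which was higher (0.73, adjusted p = 0.034 from edgeR). On average Ripk3 had 0.46 (adjusted p = 0.0362 from edgeR), short of the fold cutoff. Tradd, Casp8 and Tnfrsf1a, the most abundant of the list, had average estimates of -0.08, 0.10 and 0.02.

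**Figure D4:**
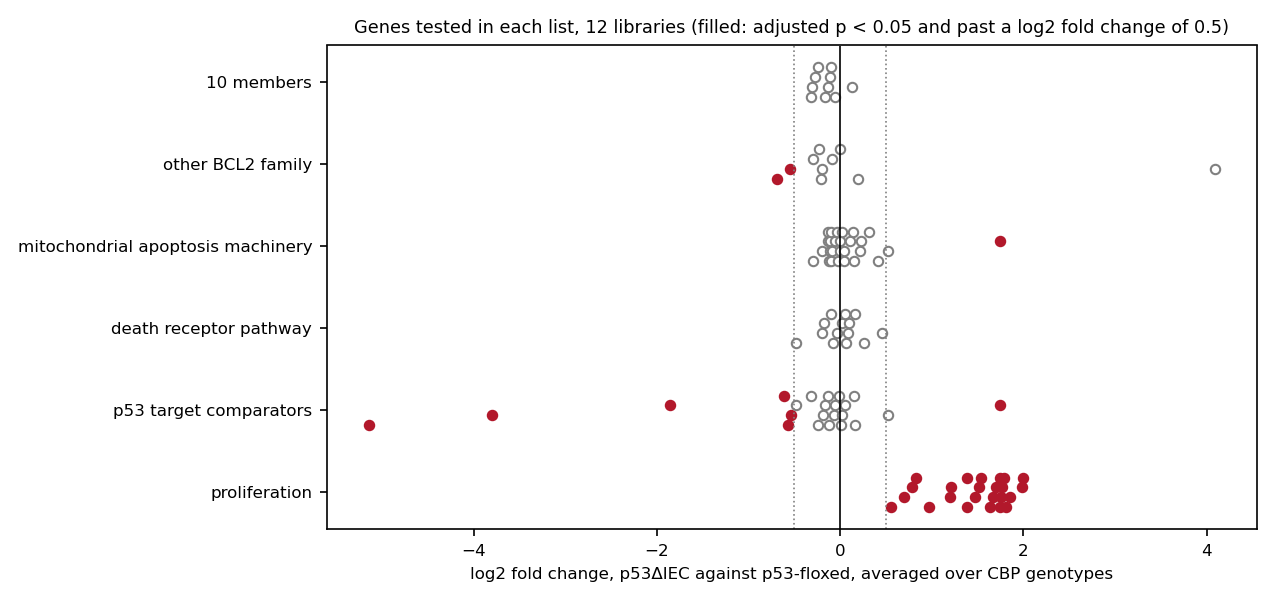
Log2 fold change on p53 deletion, averaged over CBP genotypes, of the tested genes of 6 lists, 1 point per gene; filled points were called and dotted lines mark 0.5 in size. The members lie between -0.32 and 0.13 with no filled point, the p53 comparators reach -5.14, every proliferation gene is filled, and the open point at 4.09 is Bcl2l15.

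The second question was whether the CBPAA alleles changed the family. In p53-floxed crypts edgeR called 0 of 10 members, against 0% of all genes, and at an unadjusted p under 0.05 again 0, against 8.04%. In p53ΔIEC crypts it called 0 of 10, against 0.00684%, and 0 at an unadjusted p under 0.05, against 3.57%. DESeq2 and limma called 0 members in both. With the 4 libraries left out edgeR again called 0 of 10 in each, against 0.276% in p53-floxed and 0.0526% in p53ΔIEC crypts. The CPM of 4 members (Bid, Bcl2l1, Pmaip1 and Mcl1) did not overlap between CBP genotypes in p53-floxed crypts, against 19.4% of all genes, and that of 1 member (Bad) in p53ΔIEC crypts, against 9.26%.

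In p53-floxed crypts 7 of 10 estimates were above 0. The largest was that of Pmaip1, 0.43 (SE 0.211, 95% interval -0.03 to 0.88, adjusted p = 0.618 from edgeR), with its CBPAA values at 27.7, 18.6 and 15.4 TPM against 14.8 to 18.1 TPM. Bid had 0.37 (-0.07 to 0.80), Bax 0.33 (-0.09 to 0.75), Bbc3 0.30 (-0.12 to 0.72) and Bcl2l1 0.21 (-0.10 to 0.51). The lowest estimate over 12 libraries was that of Bcl2, -0.27 (-0.66 to 0.11). These intervals hold both 0 and changes past the cutoff of 0.5 and so exclude neither. The intervals of Bak1 (-0.19 to 0.32), Bad (-0.08 to 0.45), Mcl1 (-0.40 to 0.03) and Bcl2l11 (-0.48 to 0.33) ended within the cutoff. These estimates moved with single libraries: without CBPAAp53-floxed replicate 2, one of the 4, Bax had 0.0720 and Bcl2 -0.0622. Over the 12 fits that leave out 1 library Bax ran from 0.0720 to 0.47, Bcl2 from -0.47 to -0.0622, Bbc3 from 0.18 to 0.38, Bid from 0.29 to 0.47 and Pmaip1 from 0.25 to 0.53. With all 4 libraries left out Pmaip1 had 0.47 (95% interval 0.17 to 0.78, adjusted p = 0.2 from edgeR) and Bid 0.32 (0.04 to 0.59, adjusted p = 0.349), both intervals above 0, Bax had 0.08 (-0.23 to 0.39), within the cutoff, and the lowest was Mcl1 with -0.19.

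In p53ΔIEC crypts the estimates over 12 libraries lay between -0.26 for Bad and 0.14 for Bcl2l11. That of Bcl2l11 ran from -0.15 to 0.29 over the fits that leave out 1 library, the lowest without CBPAAp53ΔIEC replicate 3, and was -0.19 without the 4 libraries, where the lowest was that of Pmaip1, -0.45 (95% interval -0.90 to 0.00287). The interval of Bad was -0.53 to 0.00437 (adjusted p = 0.985 from edgeR), with 31.4, 28.0 and 28.6 TPM in CBPAA against 30.6, 34.2 and 37.5 TPM in CBPWT crypts. These groups overlapped in TPM through the library with the most small-intestinal RNA, CBPWTp53ΔIEC replicate 1.

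The test of whether deletion acted differently in CBPAA and CBPWT crypts called 0 of 10 members, against 0.00684% of all genes, and 2 members passed an unadjusted p under 0.05, against 10.3%. These were Pmaip1, with a difference between the deletion effects of -0.67 (SE 0.300, 95% interval -1.31 to -0.02, adjusted p = 0.482 from edgeR), and Bad, with -0.45 (SE 0.174, adjusted p = 0.482). DESeq2 and limma called 0 members, and so did edgeR without the 4 libraries, against 0.23% of all genes, where the difference for Pmaip1 was -0.92 (adjusted p = 0.242) and that for Bad -0.36 (adjusted p = 0.546). The deletion effects of the 10 members were not shown to differ by CBP genotype.

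**Figure D5:**
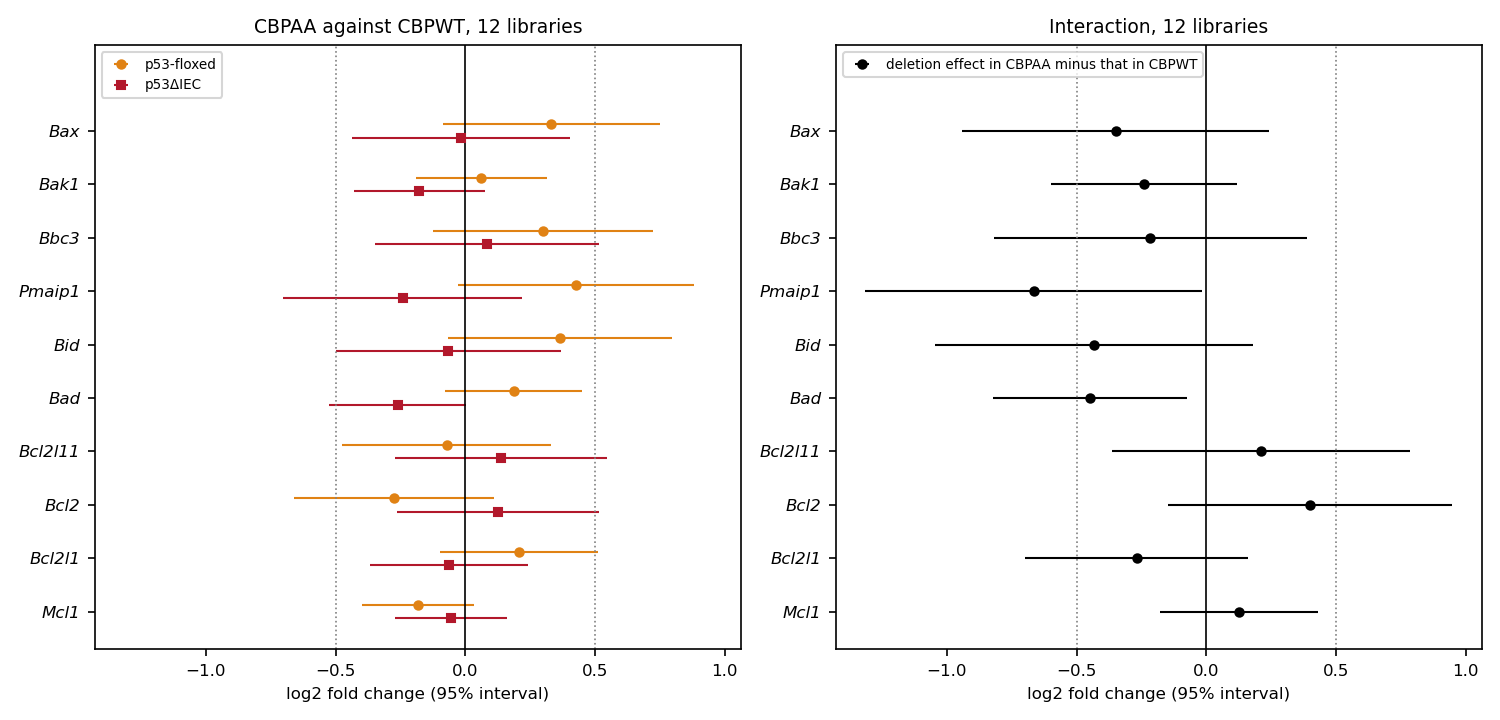
Log2 fold change with 95% interval of the 10 members for CBPAA against CBPWT crypts on the left, with p53 floxed (circles) or deleted (squares), and of the difference between the deletion effects on the right, all from 12 libraries; dotted lines mark 0.5 in size. On the left every interval reaches 0, and on the right those of Pmaip1 and Bad do not.

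The members varied together in part. Over the 12 libraries, the log2 CPM of Bbc3 and Bcl2l1 had a Pearson's r of 0.91 and that of Bid and Bcl2l1 of 0.83, whereas Bak1 and Bcl2 had -0.77, given as descriptions since libraries share genotype, depth and small-intestinal RNA. With no member called over all libraries, the genes with the closest pattern were listed for Bax, Bbc3 and Bcl2. They were Pin4, Etfb and Cyba for Bax (r between 0.898 and 0.918), Galt, Ccdc116 and Kctd6 for Bbc3 (0.949 to 0.959) and Mgat5, Shank2 and Ptpn4 for Bcl2 (0.969 to 0.972), each over 12 libraries.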

How the data were processed

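The authors deposited a table of raw read counts and TPM per gene and library, beside log2 fold changes and adjusted p-values of their own comparisons, which were not used. The submitters' processing notes name fastp 0.20.0, FastQC 0.11.9, HISAT2 2.1.0, SAMtools 1.9, featureCounts (Subread 2.0.1) and GRCm38; the strand setting of counting is not given in the sources used here. Groups came from the genotype labels.

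The deposited counts were fitted with edgeR 4.0.16 under R 4.3.3. Genes were kept by filterByExpr at a count of 10 (14610 of 55471), libraries were scaled by TMM, and a robust quasi-likelihood model of 4 groups took in all 12 libraries. Of 6 contrasts, 2 compare p53 states, 1 averages them, 2 compare CBP genotypes and 1 is the interaction; they share libraries. P-values were Benjamini-Hochberg adjusted over all genes tested and measure only the spread between 3 libraries per group. DESeq2 1.42.0 and limma 3.58.1 on log2(TPM + 0.5) or log2(TPM + 0.05), for genes with a mean TPM of at least 0.5, were alternatives. Levels are deposited TPM; positions and overlaps are from GENCODE M21. Methods were tested on simulated data. The named genes were all 10 members, further family genes, genes called or most abundant within lists of pathway genes, and the 3 genes most correlated with members. Members and lists were chosen with earlier results of these data known. Figures were drawn with matplotlib in Python.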

Additional observations from a re-analysis of the deposited data

How the results depend on the processing

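Under 22 settings, the 12 that leave out 1 library included, the 60 estimates of the 10 members gave 1300 values. Of these 1243 kept their direction and their side of the threshold, 54 turned direction (none of them called, the largest 0.231 in size) and 3 became called, all without the 4 libraries with small-intestinal RNA. DESeq2's size factors, at least 10 counts in every library and dropping the cutoff on fold change were also tried. They moved no count of calls over all genes or over the members by over 1.5 times. On average Mtch2, Ripk3 and Bcl2l14 fell short of that cutoff alone (adjusted p = 0.0144, 0.0362 and 0.035 from edgeR), so dropping it adds them to the calls of their lists. The fewest reads of a member in a library were 81, for Bbc3, and how far depth limits each member was not tested. The cause of each change below was not tested.

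The number of genes called moved more. For p53 deletion in CBPWT crypts (460 in the 12-library fit) it was 863 with DESeq2, 723 on the 2 groups alone and 1729 without the 4 libraries. For deletion in CBPAA crypts (4) it was 73 with DESeq2, 11 with no filter, 1 on the 2 groups alone and 1053 without the 4 libraries, where 1 member was called. For the average (511) it was 1692 without the 4 libraries, where 2 members were called. For CBPAA against CBPWT in p53-floxed crypts (0) it was 33 with DESeq2, 3 with no filter and 42 without the 4 libraries, in p53ΔIEC crypts (1) 0 on the 2 groups alone and 8 without the 4, and for the interaction (1) 30 with DESeq2, 2 with no filter and 35 without the 4. With a single library left out, the number ran from 1 to 906 in CBPWT crypts, 1 to 326 in CBPAA crypts and 105 to 1073 on average, from 0 to 2 and 0 to 1 for CBP genotype in p53-floxed and p53ΔIEC crypts and from 0 to 1 for the interaction. The lowest counts came without CBPWTp53-floxed replicate 3 (CBPWT crypts and average) and CBPAAp53ΔIEC replicate 1 (CBPAA crypts), the highest without CBPWTp53ΔIEC replicate 1 (CBPWT crypts and average) and CBPAAp53ΔIEC replicate 3 (CBPAA crypts), the latter 2 both among the 4 libraries. The number of members called was 0 in all 12 of these fits, in each comparison.

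With the replicate number as a block the genes called were 32, 2 and 304 for deletion in CBPWT crypts, CBPAA crypts and on average, and 0 for CBP genotype in p53ΔIEC crypts and the interaction. The numbers did not pair the libraries: of 18 pairs of libraries with the same number 3 had deviations correlated above 0.1 (-0.526 to 0.548). The block left the members uncalled.

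Estimates that turned direction were all small, and those below are of values given in the report unless said otherwise. With log2(TPM + 0.5) and log2(TPM + 0.05) in limma they were 0.00796 and 0.00842 for Bax on average, 0.0880 and 0.0993 for Bcl2 in CBPAA crypts, and -0.0679 and -0.0682 for Bak1 by CBP genotype in p53-floxed crypts. With the 4 libraries left out 10 turned, whether or not the report gives them: -0.14 for Pmaip1, -0.17 for Bid and -0.19 for Bcl2l1 in CBPWT crypts, -0.0317 for Bak1 in CBPAA crypts, by CBP genotype -0.0195 for Bak1 (p53-floxed), -0.19 for Bcl2l11, 0.0847 for Bcl2l1 and 0.0307 for Mcl1 (p53ΔIEC), and for the interaction 0.0172 for Bbc3 and -0.0965 for Bcl2l11. With a single library left out, estimates ran from -0.14 to 0.21 for Pmaip1 in CBPWT crypts, -0.29 to 0.12 for Bcl2 in CBPAA crypts, -0.12 to 0.0636 for Bax on average, and by CBP genotype from -0.0237 to 0.15 for Bak1 and -0.17 to 0.0328 for Bcl2l11 (p53-floxed) and -0.15 to 0.29 for Bcl2l11 (p53ΔIEC).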

Other observations

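The immediate early genes, which respond to stimuli within minutes, were read beside the family. Of 17 tested, edgeR called 0 in any of the 6 comparisons over 12 libraries, and DESeq2 called 1, Dusp1, for p53 deletion averaged over CBP genotypes. At an unadjusted p under 0.05, 1 passed for deletion in CBPWT crypts (against 20.9% of all genes), 4 in CBPAA crypts (against 12.6%), 2 on average (against 21.9%), 2 for CBP genotype in p53-floxed crypts (against 8.04%), 2 in p53ΔIEC crypts (against 3.57%) and 1 for the interaction (against 10.3%). Without the 4 libraries with small-intestinal RNA, the median log2 fold change was -0.45 for deletion in CBPAA crypts and -0.14 on average. Over 12 libraries all 17 had estimates below 0 for p53 deletion in CBPAA crypts (median -0.28, beside 0.01 for all genes tested). In CBPWT crypts 9 of 17 did (median -0.04). Klf4 was the most abundant of them, with a mean of 498 TPM. In CBPAA against CBPWT p53-floxed crypts 15 of 17 estimates lay above 0 (median 0.27). The part of this in the members' values was not tested.

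The summed TPM of 7 stem cell genes, led by Slc12a2, lay between 158.5 and 210.3 in the 6 floxed libraries and between 223 and 276.9 in the 6 p53ΔIEC libraries. Olfm4 had 126, 48.7 and 57.6 TPM in the 3 p53ΔIEC libraries with small-intestinal RNA and at most 4.45 TPM in the 8 libraries without it. Without Olfm4 the sums overlapped, from 149 to 210.1 in floxed and from 144.6 to 228.2 in p53ΔIEC libraries. In the 3 p53ΔIEC libraries without small-intestinal RNA the separation did not rest on Olfm4. Their sums of 7 genes were 223, 223.7 and 230.1, with Olfm4 at 4.45, 0.264 and 2.73 TPM. This was noticed after the values were seen and was not tested.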
